A study of Mus musculus with 8 samples.

Results

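The genes described here are cyclins of the A, B, D, E and F classes and the cyclin-dependent kinase genes Cdk1 and Cdk2. The 10 genes, Ccnd2, Ccnd3, Ccne1, Ccne2, Cdk2, Ccna2, Ccnf, Ccnb1, Ccnb2 and Cdk1, were chosen by symbol in the GENCODE M21 annotation among the 55414 genes listed. All 10 passed the filter on low counts, which left 16778 genes to test. RNA was sequenced from neutrophils sorted from the spleen of 4 WT mice (strain FVB-WT) and 4 Cxcr2-/- mice (strain FVB-Cxcr2-/-), all aged 10 weeks and kept free of specific and opportunistic pathogens (SOPF), with 1 library per mouse. The Cxcr2-/- mice lack the chemokine receptor gene Cxcr2 in the whole animal, not in neutrophils alone, and had been backcrossed to FVB. The labels name no treatment. The comparison asks how the RNA of each cyclin and kinase differed between the genotypes, in the order of the cell cycle phases in which their proteins act.

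Cyclins are the regulatory subunits that switch on cyclin-dependent kinases, and most of them are made and destroyed once in each cell cycle. D cyclins act in G1, E cyclins with Cdk2 at the G1/S transition, cyclin A2 in S and G2 phase, and B cyclins with Cdk1 at entry into mitosis. In the neutrophil lineage, promyelocytes and myelocytes divide, while metamyelocytes, band cells and segmented neutrophils have left the cell cycle.

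WT libraries held 34220182 to 46233555 counts on genes, and Cxcr2-/- libraries 37549648 to 43789253. Cxcr2, the targeted gene, ranged from 1719 to 2252 CPM across WT mice and from 12.9 to 20.7 CPM across Cxcr2-/- mice, so no library went against its label. The make-up of the libraries also moved with genotype, as 31.4% to 41.5% of read pairs in WT and 26.7% to 31.9% in Cxcr2-/- libraries lay on no feature, and the top 10 genes held 9.45% to 11.6% and 17.0% to 19.2% of the gene counts. The part of these in the results was not tested. CPM are counts scaled to a fixed library size after TMM normalization. Of the 6 neutrophil markers checked (Ly6g, Itgam, Ptprc, S100a8, S100a9 and Csf3r) the lowest value in any library was 166 CPM, for Ly6g. The product of Ly6g, like those of Ptprc (CD45) and Itgam (CD11b), is an antigen used in the sort. The level of Ly6g was 226 ± 41.5 CPM in WT and 539 ± 50.5 CPM in Cxcr2-/- libraries (SD, n = 4 each). Of the 6 markers 3 were higher (Ly6g, S100a8 and S100a9), 2 were lower (Csf3r, with a log2 fold change of -1.06, and Ptprc, with -0.77) and Itgam did not pass. A gene is said to be higher or lower, or to have passed, where its edgeR adjusted p was under 0.05. That p came from the quasi-likelihood test, adjusted by Benjamini-Hochberg over all genes tested.

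Of the 10 genes, 8 were higher in Cxcr2-/- neutrophils, 1 (Ccnd2) was lower and 1 (Ccne2) did not pass. Among all 16778 genes tested, 44.7% passed by the same edgeR rule, 23.7% as higher and 21% as lower. All 9 genes that passed changed by at least 1.5-fold, which 31.3% of all genes tested did in either direction. The rise was at least 3-fold for 6 of the 10 genes, Ccne1, Ccna2, Ccnf, Ccnb1, Ccnb2 and Cdk1, a size reached by 2.52% of all genes tested. Ccnd2 was the 1 gene that fell at least 3-fold, as did 3.7% of all genes tested. For 9 of the 10 genes the WT and Cxcr2-/- libraries did not overlap, which held for 41.6% of all genes tested. The median log2 fold change was 1.97 over the 10 genes and 0.01 over all genes tested. In RNA from a sorted population, more cells that express a gene and more RNA per cell cannot be told apart.

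**Figure D1:**
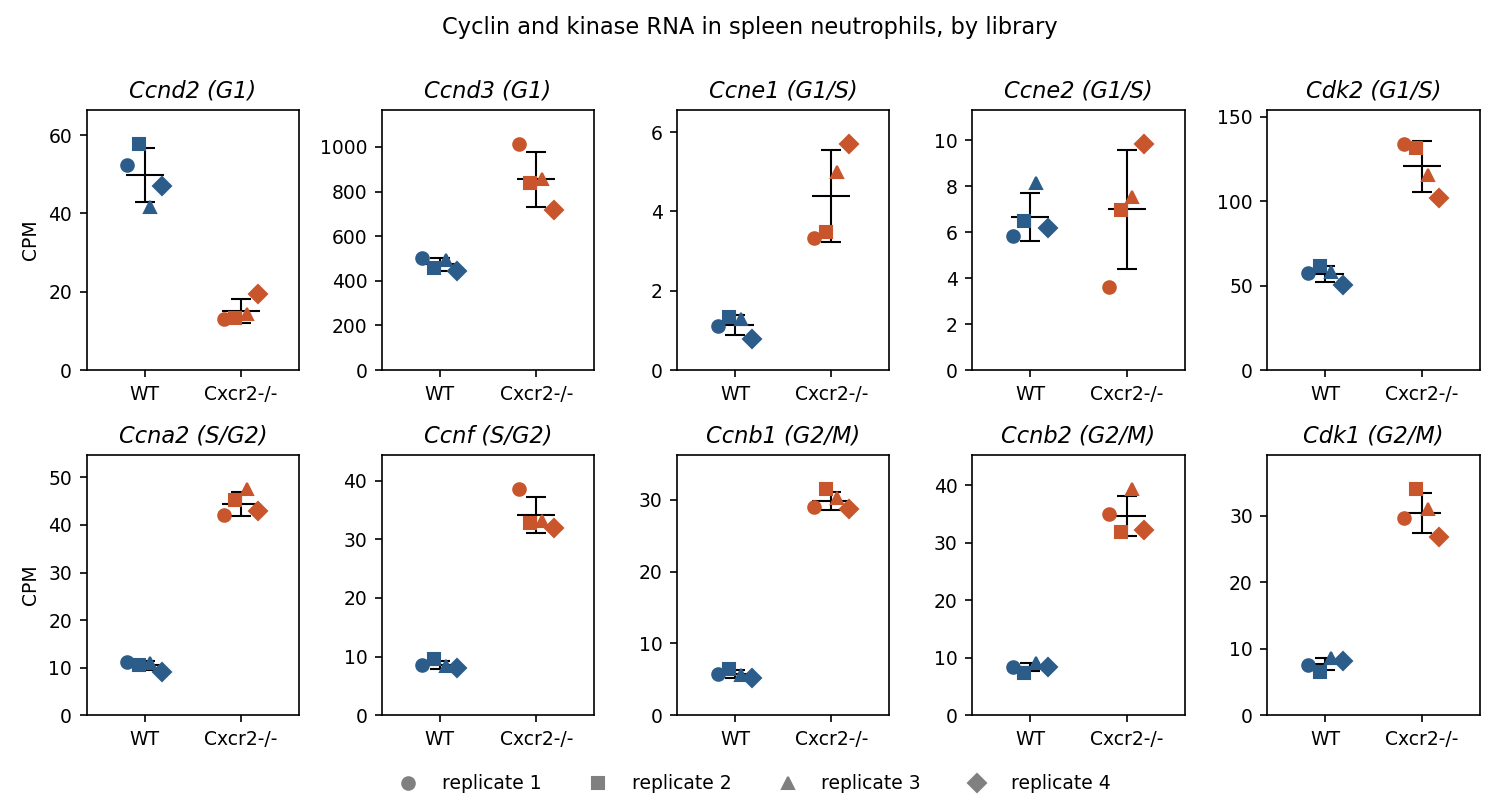
CPM (y axis, linear, from 0) of the 10 genes in each library of the WT and Cxcr2-/- groups, with the mean and SD of the 4 libraries and a symbol shape for each replicate number. The groups do not overlap for 9 genes, and for Ccne2 the Cxcr2-/- libraries lie on both sides of the WT libraries.

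The D cyclins, which bind Cdk4 and Cdk6 and link growth factor signals to G1 progression, moved in opposite directions. Ccnd2 (ENSMUSG00000000184, chr6:127125162-127152193, minus strand, GRCm38) was at 52.4, 57.8, 41.7 and 47.1 CPM in WT replicates 1 to 4 and at 13.0, 13.3, 14.2 and 19.5 CPM in Cxcr2-/- replicates 1 to 4. Every Cxcr2-/- library was below every WT library, and the fall was 3.31-fold (log2 fold change -1.73, standard error 0.15, edgeR adjusted p = 1.90e-06). Ccnd3 (ENSMUSG00000034165, chr17:47505051-47599691, plus strand) was at 501, 457, 492 and 444 CPM in WT and at 1015, 837, 856 and 715 CPM in Cxcr2-/- libraries. Here every Cxcr2-/- library was above every WT library, with a rise of 1.81-fold (log2 fold change 0.85, standard error 0.12, edgeR adjusted p = 7.89e-05). Within each library, where no scaling between libraries enters, 0.0847 to 0.127 counts fell on Ccnd2 for each count on Ccnd3 in WT and 0.0128 to 0.0273 in Cxcr2-/- neutrophils. The log2 ratio was lower by 2.58 in Cxcr2-/- libraries (two-sided exact permutation test, p = 0.0286, the smallest that 4 against 4 can give; 0.0381 after adjustment over the 4 ratios compared).

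The E cyclins, which drive the start of DNA replication with Cdk2, also differed from each other. Ccne1 (ENSMUSG00000002068, chr7:38097984-38107534, minus strand) was low in WT, at 1.11, 1.35, 1.28 and 0.781 CPM, and at 3.34, 3.49, 5.01 and 5.71 CPM in Cxcr2-/- libraries. These values rest on 27 to 235 counts per library, the fewest of the 10 genes. The groups did not overlap and the rise was 3.86-fold (log2 fold change 1.95, standard error 0.25, edgeR adjusted p = 5.24e-05). Ccne2 (ENSMUSG00000028212, chr4:11191351-11204779, plus strand) was at 5.81, 6.49, 8.15 and 6.16 CPM in WT and at 3.59, 6.97, 7.52 and 9.84 CPM in Cxcr2-/- libraries. The lowest and the highest of all 8 values were Cxcr2-/- libraries, and the log2 fold change of 0.07 had a 95% interval from -0.47 to 0.61 (edgeR adjusted p = 0.838). Exons of Ints8, on the opposite strand, overlap those of Ccne2, and how reads in the overlap were counted is not known here. The sign of the Ccne2 change was negative, between -0.15 and -0.0018, with upper-quartile or total-count scaling, with the replicate number as a block and without Cxcr2-/- replicate 4. The ratio of Ccne1 to Ccne2 counts was 0.127 to 0.207 in WT and 0.5 to 0.930 in Cxcr2-/- libraries, a rise of 1.96 on the log2 scale (two-sided exact permutation test, p = 0.0286, adjusted 0.0381). Cdk2 (ENSMUSG00000025358, chr10:128697939-128705031, minus strand), the kinase that both E cyclins and cyclin A2 activate, was at 57.2, 61.5, 57.9 and 50.4 CPM in WT and at 134, 132, 115 and 102 CPM in Cxcr2-/- libraries. All 4 Cxcr2-/- libraries were above the WT libraries, with a rise of 2.13-fold (log2 fold change 1.09, standard error 0.11, edgeR adjusted p = 6.01e-06).

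Among the genes of S, G2 and M phase, all 5 rose, with folds from 3.95 for Cdk1 and Ccnf to 5.21 for Ccnb1. Ccna2 (ENSMUSG00000027715, chr3:36564865-36572150, minus strand), whose protein binds Cdk2 in S phase and Cdk1 in G2, was at 11.2, 10.5, 11.0 and 9.08 CPM in WT and at 42.1, 45.2, 47.6 and 42.9 CPM in Cxcr2-/- libraries. Ccnf (ENSMUSG00000072082, chr17:24222198-24251484, minus strand) encodes cyclin F, an F-box protein of an SCF ubiquitin ligase that activates no kinase, and was at 8.49, 9.55, 8.42 and 7.98 CPM in WT and at 38.6, 32.7, 33.1 and 31.96 CPM in Cxcr2-/- libraries. For both genes each Cxcr2-/- value was more than 3 times each WT value. The log2 fold changes were 2.09 (standard error 0.10) for Ccna2 and 1.98 (standard error 0.11) for Ccnf, with edgeR adjusted p 5.29e-08 and 8.87e-08.

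The B cyclins carry Cdk1 into mitosis. Ccnb1 (ENSMUSG00000041431, chr13:100778650-100786570, minus strand) was at 5.77, 6.45, 5.53 and 5.15 CPM in WT and at 29.1, 31.5, 30.2 and 28.7 CPM in Cxcr2-/- libraries. Ccnb2 (ENSMUSG00000032218, chr9:70407692-70421547, minus strand) was at 8.47, 7.38, 9.11 and 8.42 CPM in WT and at 34.96, 31.8, 39.4 and 32.3 CPM in Cxcr2-/- libraries. The increase was 5.21-fold for Ccnb1 and 4.15-fold for Ccnb2, with no overlap between the groups for either gene. Cdk1 (ENSMUSG00000019942, chr10:69335146-69352938, minus strand), their kinase, was at 7.49, 6.57, 8.63 and 8.10 CPM in WT and at 29.8, 34.1, 31.0 and 26.8 CPM in Cxcr2-/- libraries. Its lowest Cxcr2-/- library was 3 times its highest WT library or more. The log2 fold changes were 2.38 for Ccnb1, 2.05 for Ccnb2 and 1.98 for Cdk1, with standard errors of 0.11, 0.11 and 0.12 and edgeR adjusted p 3.49e-08, 1.00e-07 and 1.78e-07. The ratio of Ccnb1 to Ccnb2 counts, 0.607 to 0.875 in WT and 0.766 to 0.990 in Cxcr2-/- libraries, overlapped between the groups (log2 difference 0.34, exact permutation test, two-sided, p = 0.0857). The ratio of Cdk1 to Cdk2 counts rose from between 0.107 and 0.161 in WT to between 0.222 and 0.269 in Cxcr2-/- libraries (log2 difference 0.90, exact permutation test, two-sided, p = 0.0286, adjusted 0.0381).

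**Figure D2:**
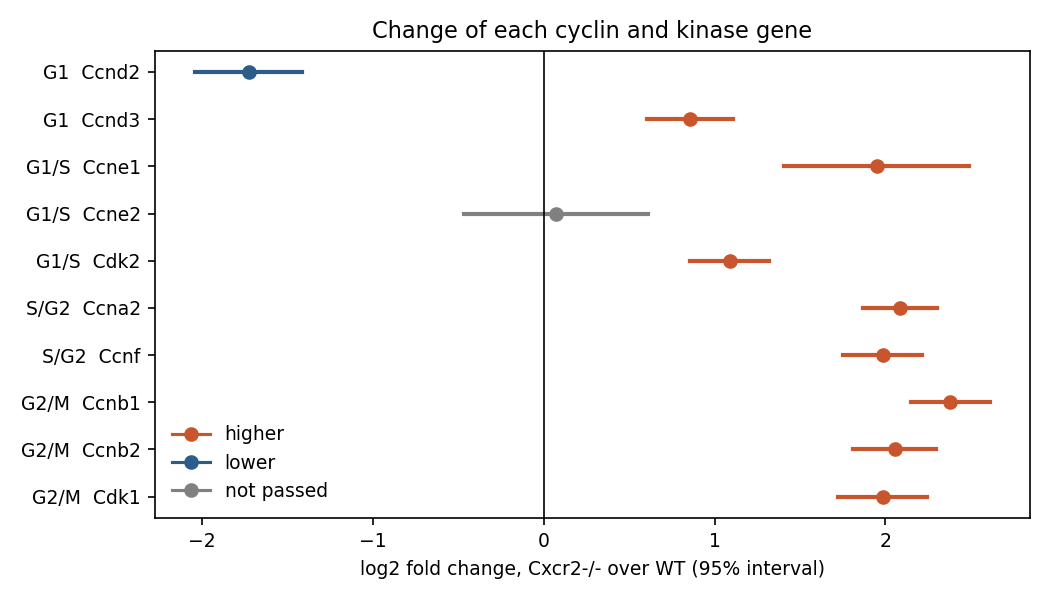
Log2 fold change of each of the 10 genes in Cxcr2-/- over WT neutrophils (points) with its 95% interval from edgeR's fit (lines), ordered by cell cycle phase. Ccnd2 lies below 0, the interval of Ccne2 spans 0, and the 5 genes of S, G2 and M phase lie between 1.98 and 2.38.

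**Figure D3:**
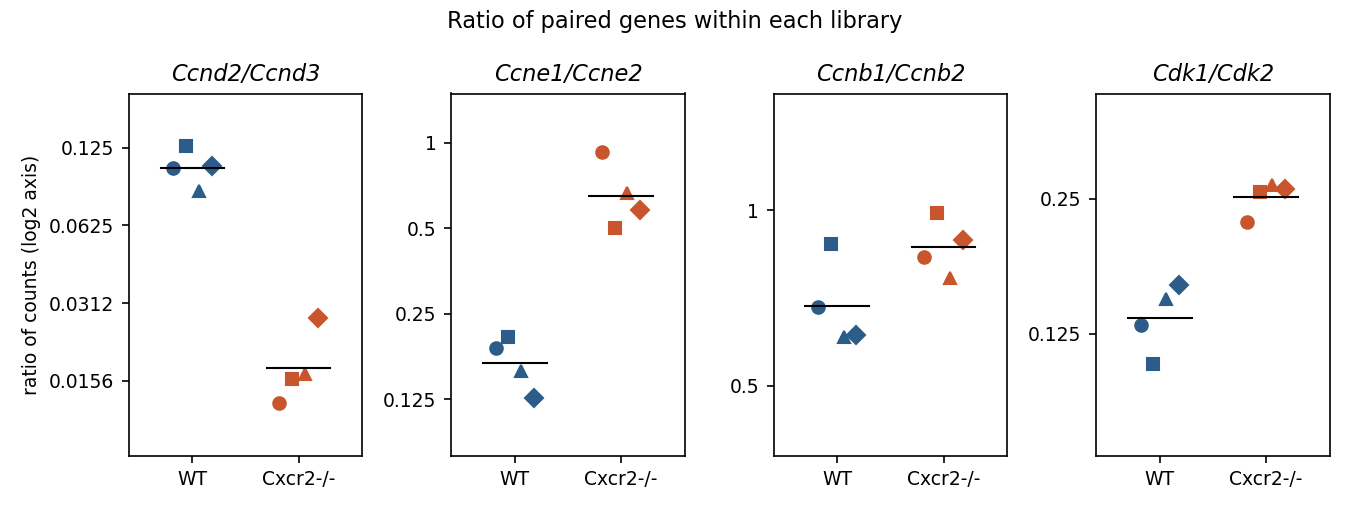
Ratio of the counts of paired genes within each library (y axis, log2 scale) for Ccnd2/Ccnd3, Ccne1/Ccne2, Ccnb1/Ccnb2 and Cdk1/Cdk2, with a circle, square, triangle and diamond for replicates 1 to 4 and a line at the mean of the 4 log2 ratios. Only the Ccnb1/Ccnb2 ratio overlaps between WT and Cxcr2-/- libraries.

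Promoter sequences are shown for Ccnf and the genes of G2 and M phase, since their proteins act in the same phases and all rose. Ccne1, which rose by a similar fold (3.86), is a gene of the G1/S transition, and its window, described with the others, held none of the motifs searched. Many genes of this phase share CCAAT boxes, which the factor NF-Y binds, and a cell cycle genes homology region (CHR), which the MuvB complex binds with B-Myb or FoxM1. RefSeq sequences of GRCm38.p6 with 250 bases before the transcription start were at hand for 7 of the 10 genes, with 8 windows as Ccnd3 has 2 starts, and not for Ccna2, Ccnd2 and Ccne2. The windows of Cdk1 (chr10:69352913-69353162), Ccnb1 (chr13:100786487-100786736), Ccnb2 (chr9:70421555-70421804) and Ccnf (chr17:24251410-24251659), all on the minus strand, are printed 5′ to 3′ up to the base before the start, with CCAAT and the CHR core TTTGAA in capitals where they occur on either strand.
Cdk1: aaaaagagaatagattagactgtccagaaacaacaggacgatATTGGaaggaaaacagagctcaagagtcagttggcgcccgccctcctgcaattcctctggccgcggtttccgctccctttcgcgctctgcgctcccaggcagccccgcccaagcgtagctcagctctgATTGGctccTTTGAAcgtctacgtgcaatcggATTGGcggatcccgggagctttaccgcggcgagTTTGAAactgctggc
Ccnb1: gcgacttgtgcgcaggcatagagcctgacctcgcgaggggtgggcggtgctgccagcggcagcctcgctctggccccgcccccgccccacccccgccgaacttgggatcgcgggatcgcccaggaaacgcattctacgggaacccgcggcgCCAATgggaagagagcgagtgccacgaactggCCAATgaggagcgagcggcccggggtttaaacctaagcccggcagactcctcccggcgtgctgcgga
Ccnb2: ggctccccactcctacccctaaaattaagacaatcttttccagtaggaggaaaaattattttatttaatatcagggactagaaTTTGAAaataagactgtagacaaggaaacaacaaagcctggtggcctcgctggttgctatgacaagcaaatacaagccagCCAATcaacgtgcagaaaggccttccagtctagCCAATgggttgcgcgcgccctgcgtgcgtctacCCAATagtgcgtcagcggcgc
Ccnf: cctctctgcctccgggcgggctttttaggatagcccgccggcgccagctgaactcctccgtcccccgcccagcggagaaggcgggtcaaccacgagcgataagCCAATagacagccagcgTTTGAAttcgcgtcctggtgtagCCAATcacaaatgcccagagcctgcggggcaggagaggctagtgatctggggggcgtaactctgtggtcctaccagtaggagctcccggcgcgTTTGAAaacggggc

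Cdk1 held 3 CCAAT matches, all read on the opposite strand as ATTGG, and 2 of the CHR core, the nearer one 10 bases before the start. Ccnb2 held 3 CCAAT matches, 17, 50 and 83 bases before the start, and 1 of the CHR core at 162 bases. Ccnf held 2 of each, with the nearest CHR core 9 bases before the start, and Ccnb1 held 2 CCAAT matches and none of TTTGAA. Distances are counted from the RefSeq start. The GENCODE M21 spans of Cdk1, Ccnb1 and Ccnf given above reach into their windows. The nearest CHR core of Cdk1 and that of Ccnf therefore lie inside the M21 gene. These 4 windows, chosen by phase and with the rise of their genes known, each had at least 2 CCAAT matches, as did 10.1% of the 32851 RefSeq windows of the same length. The combination of at least 2 CCAAT matches and a CHR core stood in Cdk1, Ccnb2 and Ccnf and in 1.53% of all windows. Among the other windows, Cdk2 and the downstream start of Ccnd3 held 1 CCAAT match each, and Ccne1 and the upstream start of Ccnd3 none. The E2F letters TTTGGCGC, TTTCGCGC, TTTGCCGC and TTTCCCGC, searched on both strands, matched once in Cdk1 and once in Cdk2 and in 1.86% of all windows. A match of letters does not show that a factor was bound, and no match says only that these letters are not in the window.

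Levels were compared between genes as CPM per kb of exons (the joined exons of GENCODE M21). In WT neutrophils Ccnd3 was the highest, at 53.9 ± 3.14, followed by Cdk2 at 9.13 ± 0.745, Ccnb2 at 5.45 ± 0.470 and Ccnd2 at 5.29 ± 0.738 CPM per kb (SD, n = 4). The means of Ccnb2 and Ccnd2 differed by less than the SD of Ccnd2. Below them were Ccna2 at 2.56 ± 0.238, Ccne2 at 1.90 ± 0.296, Cdk1 at 1.56 ± 0.179, Ccnb1 at 1.36 ± 0.130, Ccnf at 1.10 ± 0.0850 and Ccne1 at 0.424 ± 0.0952 CPM per kb. In Cxcr2-/- neutrophils Ccnd3 was again the highest, at 97.5 ± 14.0, and Ccnb2 came next, at 22.6 ± 2.27 CPM per kb. Then came Cdk2 at 19.4 ± 2.43, Ccna2 at 10.9 ± 0.605, Ccnb1 at 7.08 ± 0.305, Cdk1 at 6.16 ± 0.615 and Ccnf at 4.37 ± 0.390 CPM per kb. Ccnd2, the fourth of the 10 in WT, was the last in Cxcr2-/- libraries at 1.597 ± 0.323 CPM per kb, where it did not differ beyond the SD from Ccne1 (1.65 ± 0.437) nor Ccne1 from Ccne2 (1.998 ± 0.739).

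The spread between mice of a genotype differed from gene to gene. Among the Cxcr2-/- libraries the highest value was 1.10 times the lowest for Ccnb1, 1.13 times for Ccna2, 1.21 times for Ccnf, 1.24 times for Ccnb2 and 1.27 times for Cdk1. The genes of G1 and the G1/S transition spread further in this genotype, from 1.32 times for Cdk2 and 1.42 times for Ccnd3 to 1.499 times for Ccnd2, 1.71 times for Ccne1 and 2.74 times for Ccne2. The WT libraries did not have this order, with 1.13 times for Ccnd3 and 1.22 times for Cdk2 against 1.20 times for Ccnf, 1.24 times for Ccna2 and Ccnb2, 1.25 times for Ccnb1 and 1.31 times for Cdk1. For Ccnd2, Ccne2 and Ccne1 the WT spread was 1.39, 1.40 and 1.72 times. Cxcr2-/- replicate 4 was the highest of the 4 for Ccnd2, Ccne1 and Ccne2 and the lowest for Ccnd3 and Cdk2, and replicate 1 was the reverse for each of these 5 genes. The summed level of 13 DNA replication genes followed the E cyclins, at 226, 231, 335 and 379 CPM in Cxcr2-/- replicates 1 to 4. That of 8 early granulocyte genes (Mpo, Elane, Prtn3, Ctsg, Ms4a3, Gfi1, Kit and Cd34) was at 114, 107, 282 and 437 CPM. The 7 genes of myelocytes and metamyelocytes went the other way, at 74057, 62322, 60072 and 51265 CPM, while 15 mitotic genes lay between 1265 and 1419 CPM in all 4. Markers of other cell types also differed between these 4 libraries. In replicates 1 to 4 the summed markers of erythroid cells were at 1.92, 1.77, 11.4 and 12.2 CPM, and those of B cells at 15.02, 13.3, 23.2 and 29.1 CPM. The eosinophil, basophil and mast cell markers were at 35.4, 36.1, 47.7 and 57.1 CPM and the plasma cell markers at 3.69, 5.23, 5.34 and 7.24 CPM, so that replicate 4 was the highest for these 4 lists as well. It was also the highest for NK cell markers (5.59, 4.07, 6.30 and 10.5 CPM) and dendritic cell markers (7.31, 5.81, 6.63 and 8.65 CPM). Monocyte and macrophage markers were highest in replicate 3 (942 CPM) and megakaryocyte markers in replicate 1 (6.62 CPM). The T cell sum was highest in replicate 1 and lowest in replicate 4, at 138, 117, 97.7 and 90.1 CPM. Only 3 of its 5 genes (Cd3d, Cd3g and Cd4) passed the filter on low counts. With 4 libraries no correlation was computed, and the part of neutrophil stage and of other cell types in these differences was not tested.

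**Figure D4:**
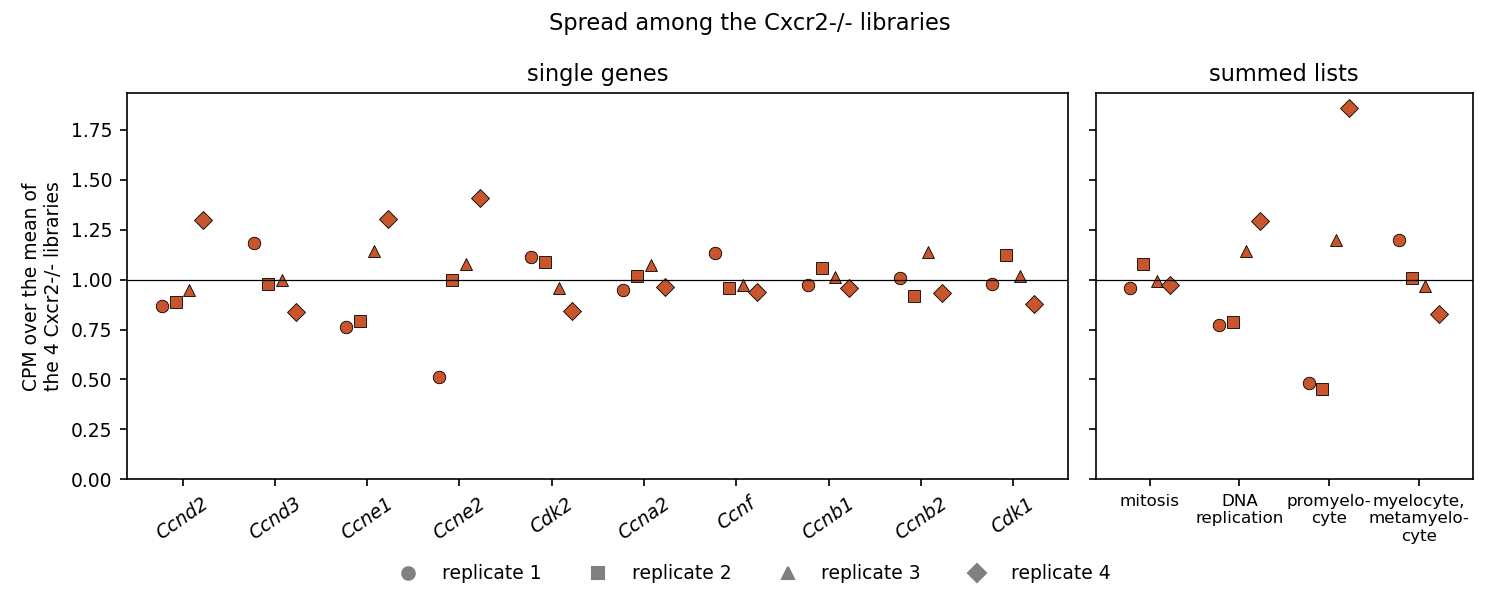
CPM of the 10 genes (left) and summed CPM of 4 gene lists (right) in each Cxcr2-/- library, divided by the mean of the 4 Cxcr2-/- libraries (y axis, linear, from 0), with a symbol for each replicate number. Ccne1, Ccne2, Ccnd2 and the DNA replication and early granulocyte (labelled promyelocyte) lists are highest in replicate 4, and the genes of S, G2 and M phase stay near 1.

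By the root mean square difference over the 8 libraries of log2 CPM centred on each gene's mean, the genes nearest to Ccna2 were Bub1b (0.0623), Tpx2 (0.0676) and Tacc3 (0.0815), which act at the mitotic spindle and its checkpoint. Nearest to Cdk1 were the helicase gene Pif1 (0.108), the interferon-induced transmembrane gene Ifitm6 (0.119) and the mitotic kinesin gene Kif2c (0.122). The genes nearest to Ccnd2 were 1190002N15Rik (0.115), the integrin subunit gene Itgad (0.146) and Slc25a33 (0.148). Nearest to Ccne2 were Gm18225 (0.142), the augmin subunit gene Haus2 (0.152) and Gm47689 (0.177), of which Gm18225 and Gm47689 were under 1 CPM on average in both groups.

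Of the other cyclins and kinases of the cell cycle, Ccnd1 was lower, with a mean of 7.12 ± 4.60 CPM in WT and of 2.97 ± 0.680 CPM in Cxcr2-/- mice (edgeR adjusted p = 0.0139), with overlap between the groups. Cdk6, a partner of the D cyclins, was at 23.4 ± 1.81 and 23.1 ± 3.64 CPM (log2 fold change -0.02, edgeR adjusted p = 0.898). Cdk4, the other partner, was at 3.96 ± 0.708 and 6.70 ± 2.53 CPM and was called higher (edgeR adjusted p = 0.0290) here and in 9 of 16 other settings. Ccna1 and Ccnb3 did not pass the filter on low counts. Of 28 tested cyclins and kinases of transcription and other roles, 6 were higher (2 to 6 under other settings, 3 with DESeq2). In the same list 10 were lower (7 to 14 under other settings), and the median log2 fold change was -0.12. The largest fall among them was that of Ccnl1, a cyclin of splicing, from 499 ± 31.0 CPM in WT to 191 ± 43.5 CPM in Cxcr2-/- libraries (log2 fold change -1.39, edgeR adjusted p = 1.26e-05). Ccno was called higher, but it was at 0.221 CPM in Cxcr2-/- replicate 2 and at 16.96, 20.002 and 17.4 CPM in replicates 1, 3 and 4.

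Of 8 genes that switch the kinases on, 5 were higher and 3 did not pass, and the median log2 fold change was 1.24. Cdk7 and Ccnh, which did not pass, also belong to the list of transcription and other roles. The phosphatase genes Cdc25a, Cdc25b and Cdc25c, whose proteins remove the inhibitory phosphates from Cdk1 and Cdk2, had log2 fold changes of 1.52, 2.34 and 2.09 (edgeR adjusted p 7.77e-08, 1.78e-07 and 2.70e-06). Cdc25b averaged 17.5 ± 3.49 CPM in WT and 88.7 ± 10.4 CPM in Cxcr2-/- mice. Of the small kinase-binding subunits, Cks1b was higher (log2 fold change 1.80, edgeR adjusted p = 3.26e-05) and Cks2 did not pass (log2 fold change -0.15, edgeR adjusted p = 0.295).

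Genes that restrain the kinases moved both ways, with 4 of 7 tested higher and 2 lower. The kinase genes Wee1 and Pkmyt1, whose proteins add the phosphates that Cdc25 removes, had log2 fold changes of 1.33 and 1.40 (edgeR adjusted p 5.08e-05 and 7.67e-06). Cdkn2c and Cdkn2d, which encode inhibitors of Cdk4 and Cdk6, were higher as well, by 1.36 and 0.98 on the log2 scale (edgeR adjusted p 9.98e-07 and 6.46e-05). Cdkn1b, which encodes the inhibitor p27 of cyclin E and cyclin A complexes, was lower, with a mean of 425 ± 35.6 CPM in WT and of 217 ± 26.4 CPM in Cxcr2-/- mice (log2 fold change -0.97, edgeR adjusted p = 2.05e-05). Cdkn2b was also lower, at under 1 CPM in every library. Its call was lost without WT replicate 2 (edgeR adjusted p = 0.0524), and it was not tested where 10 counts were required in each library. Cdkn1a did not pass (log2 fold change -0.44, edgeR adjusted p = 0.232).

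Genes that control cyclin destruction and cyclin transcription were mostly higher or did not pass. Of 28 genes for cyclin turnover, 15 were higher and 2 (Fbxw7 and Btrc) were lower, with a median log2 fold change of 0.40. Ube2c and Cdc20, which work with the anaphase-promoting complex that destroys the B cyclins, rose most in that list, by 2.56 and 2.002 on the log2 scale (edgeR adjusted p 3.03e-07 and 1.69e-07). Fzr1, the activator of that complex in G1, averaged 32.2 ± 2.11 CPM in WT and 50.0 ± 9.74 CPM in Cxcr2-/- mice (log2 fold change 0.63, edgeR adjusted p = 0.00136). Fbxw7, of the ligase that destroys cyclin E, fell by 0.29 on the log2 scale (edgeR adjusted p = 0.0113). Of 19 tested E2F, pocket protein, MuvB, B-Myb and FoxM1 genes, 12 were higher and 7 did not pass (up to 2 were lower under other settings). Foxm1 averaged 10.9 ± 0.747 CPM in WT and 32.7 ± 3.05 CPM in Cxcr2-/- mice (log2 fold change 1.58, edgeR adjusted p = 3.42e-07), Mybl2 had a log2 fold change of 1.02 and E2f1 one of 1.16. Rb1, the target of cyclin D kinases, had a log2 fold change of -0.26 (edgeR adjusted p = 0.0556).

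Of 15 mitotic genes, 14 were higher and 1 was lower (median log2 fold change 1.91), and of 13 DNA replication genes, 10 were higher and 3 did not pass (median 1.26). The lower mitotic gene was Kif23, a kinesin of cytokinesis, with a mean of 210.5 ± 22.9 CPM in WT and of 82.2 ± 3.98 CPM in Cxcr2-/- mice (log2 fold change -1.36, edgeR adjusted p = 6.35e-07). Mki67, which encodes the Ki-67 protein of dividing cells, was at 214 ± 21.6 and 569 ± 23.4 CPM. Pcna, the replication clamp gene, did not pass, with a mean of 57.5 ± 2.48 CPM in WT and of 42.7 ± 12.9 CPM in Cxcr2-/- mice (edgeR adjusted p = 0.0584), and passed as lower in 8 of 16 other settings. Mcm4 and Orc1 did not pass either.

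**Figure D5:**
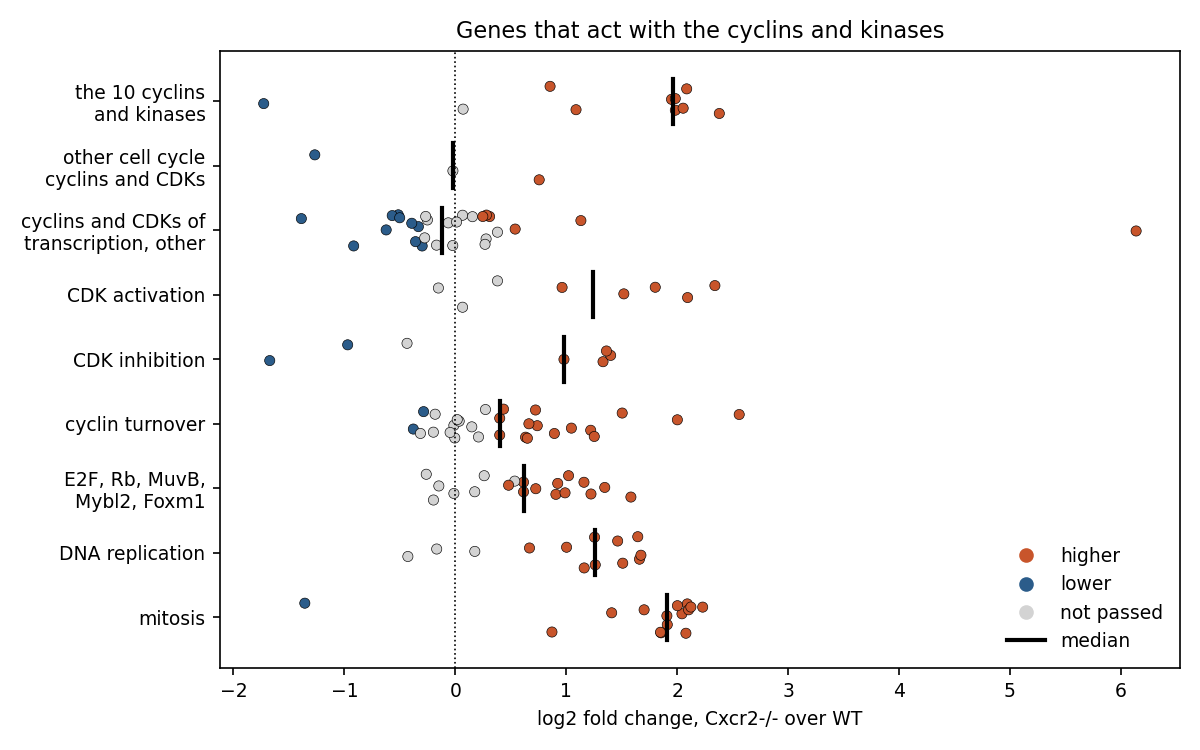
Log2 fold change, Cxcr2-/- over WT (x axis), of the 10 genes and of the tested genes of 8 lists of genes that act with them, 1 point per gene, with the median of each list as a line. The points of the 10 genes and of the mitotic list lie mostly near 2, and those of the cyclins and kinases of transcription lie around 0.

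Markers of neutrophil stage and of other cell types also moved with genotype. The summed level of the 8 early granulocyte genes was 30.7 to 55.5 CPM in WT and 107 to 437 CPM in Cxcr2-/- libraries. Of these, 6 were higher. Kit (log2 fold change 0.36, edgeR adjusted p = 0.279) and Cd34 (-0.34, edgeR adjusted p = 0.499) did not pass, so the sum does not stand for each gene. The summed level of the 7 myelocyte and metamyelocyte genes was 21989 to 26790 CPM in WT and 51265 to 74057 CPM in Cxcr2-/- libraries, with all 7 higher by edgeR's test. The 8 erythroid markers summed to 2.11 to 4.65 CPM in WT and 1.77 to 12.2 CPM in Cxcr2-/- libraries. Of these, 4 were tested and did not pass, and Klf1, a transcription factor gene of this lineage, was under 1 CPM in every library. The 6 B cell markers summed to 24.9 to 62.5 CPM in WT and 13.3 to 29.1 CPM in Cxcr2-/- libraries, with 5 lower. The 4 plasma cell markers summed to 0.665 to 3.25 and 3.69 to 7.24 CPM (1 higher), the 4 NK cell markers to 0.695 to 6.15 and 4.07 to 10.5 CPM (1 higher), and the 5 T cell markers to 95.7 to 117 and 90.1 to 138 CPM (1 lower). The tested T cell genes Cd3d, Cd3g and Cd4 had log2 fold changes of 0.13, -0.32 and -2.20. The T cell sum differed by 0.04 on the log2 scale, so it does not stand for each of these genes. The 6 monocyte and macrophage markers summed to 689 to 816 and 840.5 to 942 CPM (1 higher, 2 lower), the 5 dendritic cell markers to 9.14 to 28.6 and 5.81 to 8.65 CPM (2 lower), the 5 megakaryocyte markers to 5.93 to 7.94 and 4.07 to 6.62 CPM (1 lower), and the 6 eosinophil, basophil and mast cell markers to 38.8 to 56.2 and 35.4 to 57.1 CPM (3 higher, 1 lower). In the monocyte and macrophage list Ly6c2 was higher (log2 fold change 1.39), and Csf1r and Adgre1 were lower (-0.93 and -1.31). The median log2 fold change of that list was -1.08, so its sum and its median moved in opposite directions. In the eosinophil, basophil and mast cell list Prg2, Epx and Ms4a2 were higher (log2 fold changes 2.87, 2.78 and 1.45) and Siglecf was lower (-0.57). Ms4a2 passed in 6 of 15 other settings. The sum of this list differed by -0.19 on the log2 scale and its median log2 fold change was 2.12, so the sum does not stand for each of these genes. The sums did not overlap between the genotypes for plasma cells, monocytes and macrophages, and dendritic cells, each with an adjusted p of 0.0857 over the 9 lists of other cell types (two-sided exact permutation test), the lowest of the 9. With the mean level of these markers as a covariate in edgeR, 8 of the 10 cyclin and kinase genes were again higher and 1 lower. That mean lay between 1.46 and 1.84 in WT and between 1.40 and 1.92 in Cxcr2-/- libraries (log2 CPM), and joins lists that were higher with lists that were lower, so it does not adjust for the differences of single lists given here. The part of neutrophil stage and of each other cell type in the difference was not tested.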

How the data were processed

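Neutrophils were sorted as CD45+ CD11b+ Ly6G+ F4/80- cells after CD11b selection from 4 WT and 4 Cxcr2-/- spleens. Per the study's methods the libraries were rRNA-depleted and directional, and trimmed read pairs were mapped on mm10 using STAR. The authors deposited HTSeq counts per gene, whole numbers without normalization. The strand setting of the counting is not given in the sources used here. It is therefore not known how reads in overlapping exons of genes on opposite strands were counted. Exosc9 overlaps exons of Ccna2 by 510 bases, Ints8 those of Ccne2 by 609, Bysl those of Ccnd3 by 361 and Pmel those of Cdk2 by 34. The pseudogenes Ccnd3-ps, Ccnb1-ps and Ccnb2-ps held 0 to 25 counts per library. Symbols, positions and exon lengths came from GENCODE M21 (GRCm38, the assembly of mm10), with an entry for 52081 of 55414 genes. In 52044 of these the deposited identifier has a higher version than M21, so the counting used another annotation. The assembly of that annotation is not known here. Its exon lengths and overlaps may differ from those of M21 used for CPM per kb and for the overlaps above. Rows that name no gene held 42.4% to 53.6% of all pairs and were left out. Genotypes were compared using edgeR 4.0.16 under R 4.3.3 (quasi-likelihood test on the counts, TMM, filterByExpr, Benjamini-Hochberg adjustment over all genes). DESeq2 1.42.0, the tool of the study, was an alternative. Ratios and marker sums were compared by exact permutation tests (scipy 1.17.1). The steps were tested on simulated data. The other alternatives were RLE, upper-quartile and total-count scaling, no filter, a minimum of 10 counts in each library, a 1.5-fold threshold, 0.5 added before the ratios, a block for the replicate number, other-cell markers as covariate, and each library left out in turn. Replicates of a genotype were separate libraries by their counts (chi-square 23.9 to 99.0 per gene between pairs). The 10 genes and all lists were chosen with earlier results of these data known. Genes named are the 10 genes, Cxcr2, genes of the lists, and the 3 genes nearest in pattern to Ccnd2, Ccne2, Ccna2 and Cdk1. Of the list symbols, 1 was not analysed here.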

Additional observations from a re-analysis of the deposited data

Results flagged for a closer look

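Ccnf was at 38.6 CPM in Cxcr2-/- replicate 1, apart from the other 3 Cxcr2-/- libraries, which lay between 31.96 and 33.1 CPM. The gap was 0.830 of the group's range, just above the Dixon limit for 4 samples. It was the only such value among 28 groups of 4 looked at (10 genes and 4 ratios in each genotype). At this limit chance gives about 1 such value in every 20 groups, so 1 among 28 is no more than chance gives. Without this library the log2 fold change of Ccnf was 1.92 in place of 1.98, the lowest of the 8 fits that each left out 1 library.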

How the results depend on the processing

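The counts of 8 higher and 1 lower cyclin and kinase gene held under all 17 alternatives, and the 9 genes that passed kept direction and call in each of the 16 refits, where the highest adjusted p was 6.37e-04 (Ccnd3). Ccne2 passed in none; its log2 fold change turned negative with upper-quartile scaling (-0.045), total-count scaling (-0.0021), the replicate number as a block (-0.0018) and without Cxcr2-/- replicate 4 (-0.15), the lowest of a left-out range up to 0.29. Upper-quartile scaling moved the median log2 fold change of all genes from 0.01 to -0.11 and the share of calls that were higher from 53.0% to 41.2%, and it gave 25 lower genes of the pathway lists in place of 16. A 1.5-fold threshold left 2628 of the 3969 higher genes. Replicate numbers mark different mice. Deviations of same-numbered libraries correlated at 0.12, -0.19, 0.16 and -0.26 for WT replicates 1 to 4. The highest correlation of each with a differently numbered Cxcr2-/- library was -0.02, 0.23, 0.12 and 0.26. Correlations this weak cannot decide whether the numbers pair the libraries. The replicate block gave 3719 higher and 3349 lower genes against 3969 and 3526, and again 8 and 1 of the 10 genes. Within replicate numbers the 4 ratios kept their log2 differences of -2.58, 1.96, 0.34 and 0.90, with an exact p of 0.125, the smallest possible. With a library left out, the ratios ranged from -2.80 to -2.43 for Ccnd2/Ccnd3, 1.79 to 2.09 for Ccne1/Ccne2, 0.27 to 0.45 for Ccnb1/Ccnb2 and 0.79 to 0.98 for Cdk1/Cdk2, where 4 against 3 cannot pass 0.05. Btrc passed in 8 and Cdk4 in 9 of 16 refits. The fewest counts, 27 for Ccne1 in a WT library, limit its precision.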
